A study of Mus musculus with 2 samples.

Results

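The 8 genes Acsl6, Lim2, Pax9, Fry, Dnajc18, Grin2d, Ccdc175 and Scrt2 were chosen from the results of these arrays, because each stood far higher in 1 sorted population of mouse small intestinal epithelium than in both others. The set is labelled as non-immune genes, so immune genes with like values are outside it. They are 8 of 16390 genes with a name on the array, and each of the 8 has 1 probe. All 8 probes were above background in all 4 channels, and none carried a scanner quality mark. Ccdc175 is listed on the array by its older name 4930403N07Rik.

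All cells, of every population, came from mice carrying the alleles Atoh1-crePGR and Lgr5-EGFP-IRES-creERT2 together with Rosa26-tdTomato. In them EGFP is made from the locus of Lgr5, the receptor gene that marks crypt base columnar stem cells, and tdTomato appears for good once the Cre driven by Atoh1, the transcription factor gene of the secretory lineage, has acted. RU486 was injected into the abdomen on 5 consecutive days, and cells pooled from 4 mice were sorted 20 days after recombination into EGFP+ve/tdTomato-ve cells (EGFP only), EGFP+ve/tdTomato+ve cells (double positive) and EGFP-ve/tdTomato+ve cells (tdTomato only). Array 1 compared double-positive with EGFP-only RNA and array 2 compared tdTomato-only with EGFP-only RNA, with EGFP only in the red dye Cy5 and the other population in the green dye Cy3 each time. The sources used here give no age for the mice. As background on the model, the Lgr5 reporter is known to be silent in a part of the crypts, so cells without EGFP can include Lgr5 cells, and a gene's level in a sorted fraction cannot tell fewer expressing cells from less RNA per cell.

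The 8 genes do not form a pathway. Acsl6 encodes a long-chain acyl-CoA synthetase, an enzyme that activates fatty acids and is best known from brain. Grin2d encodes the GluN2D subunit of NMDA receptors, the glutamate-gated cation channels of neurons, and Lim2 encodes an abundant membrane protein of lens fibre cells. Dnajc18 encodes a J-domain protein, a class of helpers that pass clients to Hsp70 chaperones. Pax9 is a paired box transcription factor gene needed for pharyngeal pouches, teeth and palate. Scrt2 encodes a zinc finger repressor of the Scratch group, close to the Snail proteins and known from the nervous system. Fry encodes a very large protein that works with NDR kinases in cell shape and division, and Ccdc175 encodes a coiled-coil protein.

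Start-site sequence from RefSeq (GRCm38.p6), 250 bases before to 50 after a start, was used for 6 of the 8 genes in 8 windows. Scrt2 had no window, and Dnajc18 was left out. The windows of the gene with the highest ratio (Fry), of the pair that shared the E-box CAGGTG (Pax9 and Ccdc175), and of Lim2 with the gene next to it (Nkg7) are shown 5′ to 3′ on the strand of the gene. Capitals mark every match on either strand to a motif searched. The TATA box was searched as TATAAA and the GC box as GGGCGG. One E-box was searched by the letters CAGCTG. Another E-box was searched by the letters CAGGTG. The TCF/LEF motif was searched as CTTTGAT, and the RUNX motif was taken to be TGTGGT. Where 2 matches overlap, their capitals run together.
Fry, chr5:150259680-150259979, plus strand: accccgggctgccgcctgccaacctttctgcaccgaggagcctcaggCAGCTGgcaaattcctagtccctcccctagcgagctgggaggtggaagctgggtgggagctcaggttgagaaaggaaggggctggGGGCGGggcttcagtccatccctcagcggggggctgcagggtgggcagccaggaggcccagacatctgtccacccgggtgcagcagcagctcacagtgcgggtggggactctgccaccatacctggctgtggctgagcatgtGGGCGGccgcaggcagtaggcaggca
Pax9, chr12:56695221-56695520, plus strand: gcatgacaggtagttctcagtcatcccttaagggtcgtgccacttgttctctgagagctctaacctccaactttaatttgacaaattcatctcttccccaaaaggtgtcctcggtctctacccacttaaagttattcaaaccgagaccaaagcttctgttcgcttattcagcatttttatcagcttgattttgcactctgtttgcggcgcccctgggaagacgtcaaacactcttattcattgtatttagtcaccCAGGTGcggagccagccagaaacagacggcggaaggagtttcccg
Ccdc175, chr12:72184980-72185279, minus strand: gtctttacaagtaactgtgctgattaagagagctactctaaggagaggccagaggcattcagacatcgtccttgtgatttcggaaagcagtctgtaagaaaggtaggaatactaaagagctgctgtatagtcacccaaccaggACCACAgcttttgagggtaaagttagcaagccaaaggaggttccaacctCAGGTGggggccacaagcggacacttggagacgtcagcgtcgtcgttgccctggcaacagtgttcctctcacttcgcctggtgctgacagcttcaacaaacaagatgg
Lim2, chr7:43429849-43430148, plus strand: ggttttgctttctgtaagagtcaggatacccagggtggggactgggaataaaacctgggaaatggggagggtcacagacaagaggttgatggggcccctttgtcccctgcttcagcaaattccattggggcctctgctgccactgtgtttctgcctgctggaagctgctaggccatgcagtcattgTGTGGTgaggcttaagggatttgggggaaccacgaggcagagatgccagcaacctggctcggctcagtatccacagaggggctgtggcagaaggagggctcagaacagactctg
Nkg7, chr7:43436888-43437187, plus strand: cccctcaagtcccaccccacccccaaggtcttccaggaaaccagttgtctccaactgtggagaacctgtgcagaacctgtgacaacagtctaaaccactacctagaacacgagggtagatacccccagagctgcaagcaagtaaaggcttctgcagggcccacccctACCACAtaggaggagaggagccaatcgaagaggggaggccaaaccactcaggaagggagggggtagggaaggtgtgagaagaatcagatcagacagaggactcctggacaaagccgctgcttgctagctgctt

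No motif was common to the set. GGGCGG stood in windows of Acsl6 and Fry, against 35.7% of all 32851 windows of this length. CAGCTG was in windows of Acsl6 and Fry (16.3% of all windows), CAGGTG in those of Pax9 and Ccdc175 (20.2%), and TGTGGT in those of Acsl6, Lim2 and Ccdc175 (16.8%). TATAAA (13.6% of all windows) and CTTTGAT (3.73%) had no match in the 8 windows. CpG content differed as well, from 1 CG pair in a window of Acsl6 and 2 in that of Lim2 to 36 in another window of Acsl6, against a median of 7 over all windows.

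Each array was read as the median intensity of every spot in scanner units, and each comparison is a log2 ratio of background-corrected, loess-normalized values. There was 1 array per comparison and 1 RNA pool per population, so the values stand without replicate errors or tests, and the number of arrays limits the precision. Genes are counted by size, at a log2 ratio of at least 1 (2-fold) in either direction. Between 67.0% and 77.1% of 23474 probes were above background in the 4 channels, with limits from 74.1 to 85.4. Lgr5, measured as a check on the sort, had a log2 ratio of 0.26 in double-positive over EGFP-only cells and −0.89 in tdTomato-only over EGFP-only cells. The choice of the 8 genes used these ratios, so the ratios are given as a description.

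Acsl6 had the widest gap between the Cy3 populations. Its intensity was 764 in double-positive cells and 92.8 in tdTomato-only cells, and 97.4 and 82.8 in EGFP-only cells on arrays 1 and 2. Only the double-positive value lay well clear of the background limits. The gene was 12.0-fold higher in double-positive than in EGFP-only cells (log2 ratio 3.59), tdTomato-only cells were level with EGFP-only cells (−0.02), and the double-positive over tdTomato-only ratio was 12.2-fold. It was the highest of 11311 genes in that last comparison. In the authors' deposited table the same 3 log2 values were 5.04, 0.31 and 4.73.

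Grin2d was near the limits outside double-positive cells. It read 351 in double-positive cells, 126 in tdTomato-only cells, and 85.2 and 82.8 in EGFP-only cells. The tdTomato-only value lay above both EGFP-only values and well under the double-positive one. Its log2 ratios were 2.55 over EGFP-only and 1.91 over tdTomato-only cells, and tdTomato-only over EGFP-only cells stood at 0.63. In the authors' deposited table these values were 4.49, 2.46 and 2.03.

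Lim2 had an intensity of 830.1 in double-positive cells and 181 in tdTomato-only cells, against 96.7 and 89.2 in EGFP-only cells. The populations were thus ordered, with tdTomato-only cells between the other two. Double-positive cells were 13.3-fold above EGFP-only cells and 5.61-fold above tdTomato-only cells, and tdTomato-only cells were 2.37-fold above EGFP-only cells. The log2 ratios over EGFP-only cells, 3.73 and 1.24, were 5.21 and 2.61 in the authors' deposited table.

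Dnajc18 read 498 in double-positive cells, 143 in tdTomato-only cells, and 98.5 and 94.4 in EGFP-only cells. Its log2 ratio was 2.89 over EGFP-only and 2.20 over tdTomato-only cells. With 0.69 the tdTomato-only cells stayed within 2-fold of EGFP-only cells. In the authors' deposited table the 3 values were 4.28, 2.68 and 1.60.

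Of the transcription factor genes, Pax9 was the member with intensities far above the background limits in every population. The scanner listed a Cy3 background of 16925 on array 1 and 4443 on array 2 at its spot, which was not subtracted. Pax9 read 23869.9 in double-positive cells, 5322 in tdTomato-only cells, and 4346 and 4045 in EGFP-only cells. It was 11.6-fold higher in double-positive than in EGFP-only cells and 5.12-fold higher than in tdTomato-only cells. The log2 ratio of double-positive over EGFP-only cells, 3.53, was lower under other processing. It was 2.96 in the authors' deposited table, 2.52 when median centring replaced loess and 2.46 in the raw intensities. The tdTomato-only over EGFP-only log2 ratio was 1.18, but 0.70 in the authors' deposited table and 0.40 when median centring replaced loess.

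Scrt2 had the smallest double-positive ratios of the 8 by these values, though not in the deposited table, where Pax9 (2.96) was lowest over EGFP-only and Ccdc175 (1.90) over tdTomato-only cells. It read 287 in double-positive cells, 118 in tdTomato-only cells, and 105 and 99.6 in EGFP-only cells. The double-positive value was 3.70-fold above EGFP-only cells and 3.15-fold above tdTomato-only cells (log2 ratios 1.89 and 1.66, and 2.99 and 2.35 in the authors' deposited table), while tdTomato-only over EGFP-only cells had a log2 ratio of 0.23.

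Fry and Ccdc175 were raised in both populations with a tdTomato history. Fry read 8946 in double-positive cells, 1714 in tdTomato-only cells, and 318 and 228 in EGFP-only cells. It was 48.6-fold above EGFP-only cells in the double-positive population, second of 11774 genes, and 11.1-fold in the tdTomato-only population. Ccdc175 read 3008 in double-positive cells, 767 in tdTomato-only cells, and 239 and 201 in EGFP-only cells. Its folds over EGFP-only cells were 20.3 and 5.38 in the same order. Between the 2 Cy3 populations, Fry was 4.39-fold and Ccdc175 3.78-fold higher in double-positive cells.

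**Figure D1:**
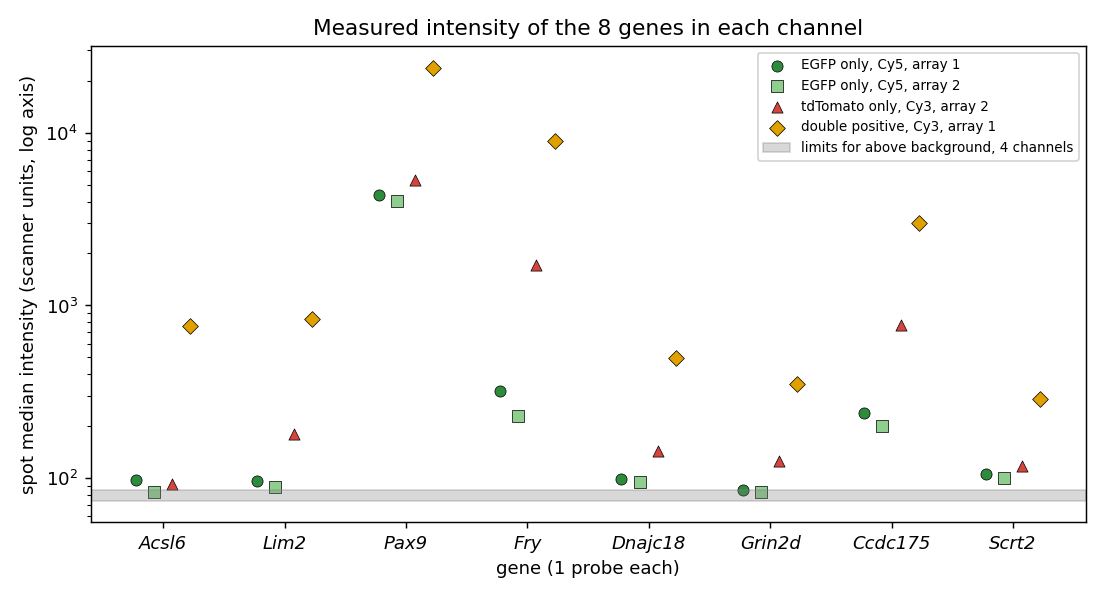
Spot median intensity (scanner units, log axis) of the 8 genes in the 4 channels, 1 point per channel, with the limits for above background as a grey band from 74.1 to 85.4. In every gene the double-positive point is the highest, and the 2 EGFP-only points lie nearer to each other than to it. They are farthest apart in Fry, at 318 and 228 (1.40-fold). Heights are not comparable between genes, since each has its own probe.

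Across the set, the log2 ratio of double-positive over EGFP-only cells ran from 1.89 (Scrt2) to 5.60 (Fry) with a median of 3.56, and 8 of 8 were at least 2-fold higher, against 5.10% of 11774 genes (0.340% were at least 2-fold lower). Double-positive over tdTomato-only ran from 1.66 (Scrt2) to 3.61 (Acsl6) with a median of 2.17, and again 8 of 8 were at least 2-fold higher, against 0.274% of 11311 genes (0.813% were at least 2-fold lower). Since these contrasts chose the genes, nothing is read from those counts. Over all genes the median log2 ratios were −0.01 and 0.02.

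The tdTomato-only over EGFP-only ratio divided the set. Fry (3.47), Ccdc175 (2.43), Lim2 (1.24) and Pax9 (1.18) were at least 2-fold higher in tdTomato-only cells, and Dnajc18 (0.69), Grin2d (0.63), Scrt2 (0.23) and Acsl6 (−0.02) were not. At least 2-fold higher were thus 4 of 8, against 6.15% of 11381 genes (1.19% were at least 2-fold lower), with a median log2 ratio of 0.93 for the 8 and −0.01 for all genes. The division was not the same under other processing. Fry, Ccdc175 and Lim2 were past 2-fold and Scrt2 and Acsl6 short of it in each of the 9 ways the arrays were processed, whereas Pax9 (0.40 to 1.32), Dnajc18 (0.56 to 1.60) and Grin2d (0.57 to 2.03) lay on either side. This comparison shares the EGFP-only reference population with the first, and the rule asked for double-positive values above both others, so it is not independent of the choice of genes.

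**Figure D2:**
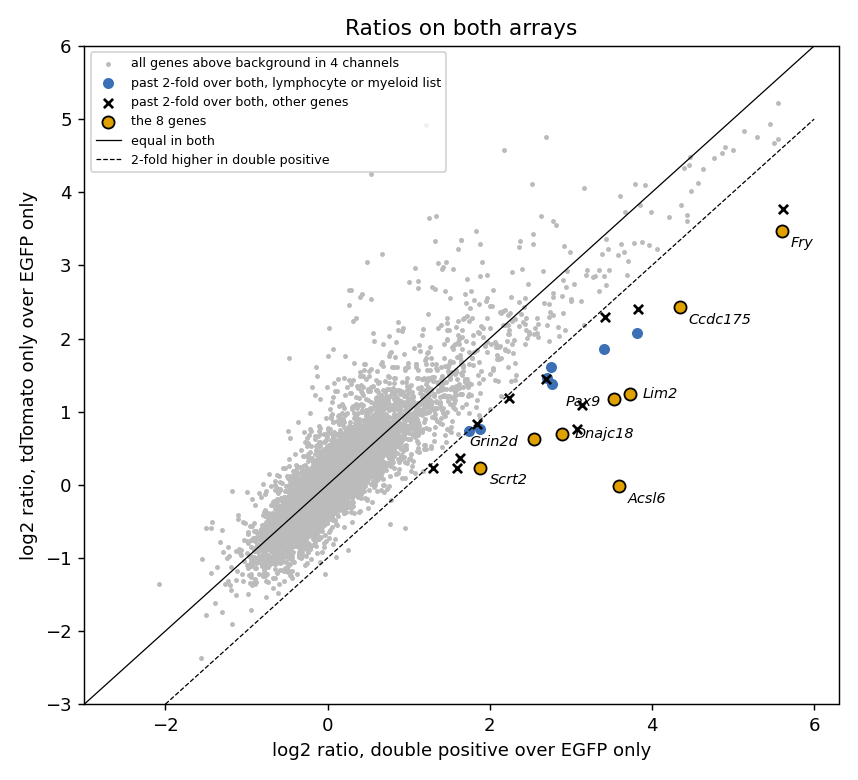
Log2 ratio of double-positive over EGFP-only cells (horizontal) against tdTomato-only over EGFP-only cells (vertical), 1 point per gene above background in all 4 channels, with a solid line for equal ratios and a dashed line for 2-fold higher in double-positive cells. The 8 genes lie below the dashed line, from Scrt2 at 1.89 to Fry at 5.60 on the horizontal axis, and Acsl6 lies lowest of them on the vertical axis at −0.02.

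Double-positive cells exceeded both other populations at least 2-fold in 26 of 11311 genes (0.230%). Besides the 8, these were 7 genes from the lymphocyte and myeloid marker lists and 11 others. The 11 are genes outside those lists, which do not hold every immune gene. A ratio of at least 4-fold over EGFP-only and 2-fold over tdTomato-only cells was met by 19 genes (0.168%), among them each of the 8 but Scrt2. In order of the double-positive over tdTomato-only ratio the 8 genes took places 1 to 3, 5, 6, 8, 9 and 12. The genes between them were the metallothionein gene Mt2 (2.31), the cDNA clones 3110009E18Rik (2.06) and 2410004B18Rik (1.84), and Gzma (1.75), a granzyme gene of cytotoxic lymphocytes. The rule gave no numeric limit, and the set was labelled as non-immune, so value alone did not decide which genes are in it. Scrt2 was the lowest member at 1.66, and the next gene below it was the chemokine gene Ccl5 at 1.56.

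Likeness was measured as the distance between genes in the 2 log2 ratios over EGFP-only cells, which are 2 values per gene and share their reference population. The 5 genes nearest to the median of the set were 3110009E18Rik (distance 0.44), Mt2 (0.52), the T cell surface gene Cd7 (0.91), Ccl5 (0.93) and Cd3g (1.01), a subunit gene of the T cell receptor complex. Member by member, the nearest gene was Mt2 for Acsl6 (0.94), Dnajc18 (0.19) and Grin2d (0.54), and 3110009E18Rik for Lim2 (0.61) and Pax9 (0.40). It was 2410004B18Rik for Fry (0.30), the protease inhibitor gene Timp2 for Ccdc175 (0.52) and the actin-like gene Actl7b for Scrt2 (0.29).

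Relatives of the 8 genes were listed by family or function. Of 131 relatives above background in all 4 channels, 0 were at least 2-fold higher in double-positive than in tdTomato-only cells and 0 were at least 2-fold lower, with a range from −0.80 to 0.76 and a median of 0.02. Over all genes these shares were 0.274% and 0.813%, so a count of 0 among 131 is near the background. Over EGFP-only cells, 7 of 136 relatives were at least 2-fold higher (5.15%, against 5.10% of all genes).

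Among fatty acid activating enzymes, Acsl5, the main long-chain synthetase of the intestinal epithelium, had log2 ratios of 0.43 in double-positive and 0.73 in tdTomato-only cells over EGFP-only cells. Acsl1 had −0.27 and −0.35, and Acsl4 was not above background in any channel. Of 12 measured genes in this list, 0 were past 2-fold in double-positive over EGFP-only cells, near the 5.10% of all genes at least 2-fold higher. The fatty acid transport gene Slc27a4 was the 1 past it in tdTomato-only cells, at 1.06, against 6.15% of all genes.

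Among the other Pax genes, Pax2 (0.01), Pax4 (−0.20), Pax6 (−0.17) and Pax8 (−0.02) were measured in double-positive over EGFP-only cells. Pax4 and Pax6 act in enteroendocrine cells. Each of the 4 lay within 2-fold, and Pax1, Pax3, Pax5 and Pax7 were not above background in both channels of an array.

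Of the Snail and Scratch genes, Snai1 had −0.10 and Snai2 −0.14 in double-positive over EGFP-only cells. Scrt1, the closest relative of Scrt2, was not above background in any channel, with 78.8 in double-positive cells.

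The partners of GluN2D were dim. Grin1, which encodes the subunit that NMDA receptors require, read 77.3 in double-positive cells and was not above background in any channel. Grin2c was also not above background, and Grin2a (0.00), Grin2b (−0.30) and Grin3a (−0.15) had no 2-fold ratio in double-positive over EGFP-only cells. Grina is named for the NMDA receptor but encodes a membrane protein outside that receptor. It was the 1 of 7 measured genes of the list past 2-fold, at 1.03, against 5.10% of all genes.

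For Fry, the paralog Fryl had 0.18 in double-positive and 0.98 in tdTomato-only cells over EGFP-only cells. The NDR kinase genes Stk38 (−0.13) and Stk38l (0.53) and the other members of that list lay within 2-fold in double-positive over EGFP-only cells, 10 of 10.

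Of the other lens fibre genes, Mip, the lens aquaporin gene, had 0.00 and Bfsp1, a lens filament gene, 0.25 in double-positive over EGFP-only cells. Of 12 lens genes on the array, 6 were above background in both channels of array 1. Past 2-fold were 0 of the 6, near the 5.10% of all genes at least 2-fold higher.

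J-domain genes held the largest group of relatives past 2-fold over EGFP-only cells, 5 of 37, and 5 of 37 in tdTomato-only cells, against 5.10% and 6.15% of all genes. Dnajb9 (2.73 and 1.97) and Dnajc3 (2.43 and 2.20), chaperones of the endoplasmic reticulum, Dnajc10 (1.86 and 2.08), Dnajc1 (1.58 and 1.35) and Dnajc12 (1.52 and 1.54) were high in both populations. In double-positive over tdTomato-only cells the highest of these was Dnajb9 at 0.76, against 2.20 for Dnajc18. Of 58 measured genes named for coiled-coil domains, Ccdc187 was the 1 past 2-fold, at 3.58 in double-positive and 3.14 in tdTomato-only cells.

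**Figure D3:**
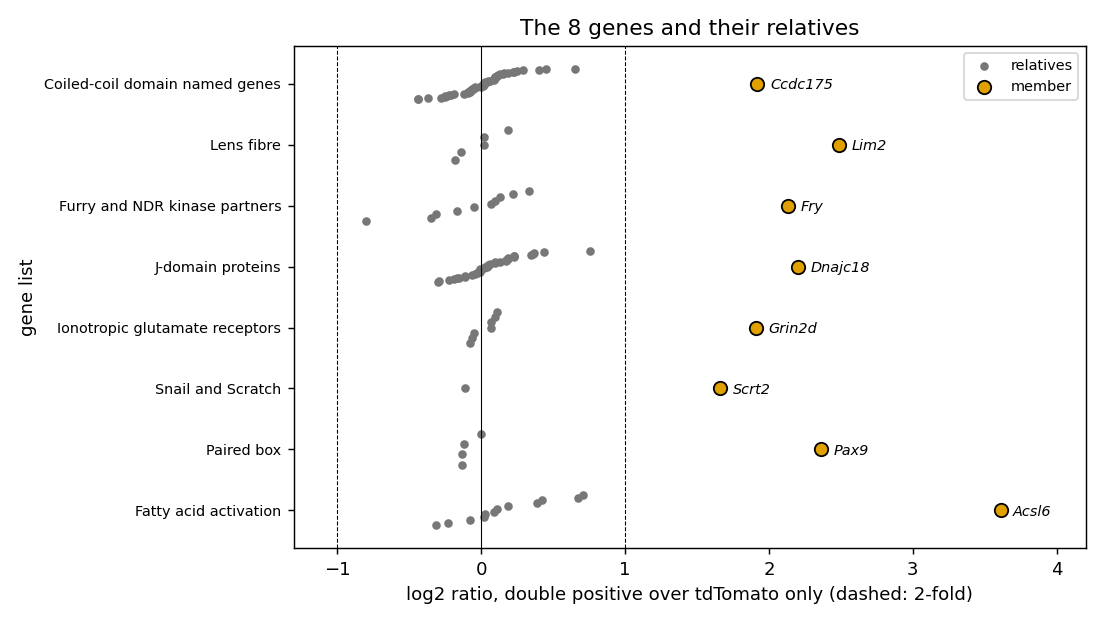
Log2 ratio of double-positive over tdTomato-only cells for the 8 genes (large points) and for their relatives above background in all 4 channels (small points), 1 row per gene list, with dashed lines at 2-fold. Relatives lie between −0.80 and 0.76 and each of the 8 genes lies above 1.

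The EGFP-only population was the only one measured on both arrays. Its values entered the ratios by which the genes were chosen, so the following counts are a description. Over 15640 probes the SD of the log2 difference between its 2 normalized measurements was 0.083, a technical spread. As scanned, the EGFP-only intensity was higher on array 1 than on array 2 for 8 of the 8 genes, against 58.5% of all probes. The log2 difference ran from 0.04 (Grin2d) to 0.48 (Fry) with a median of 0.11, and was 0.23 for Acsl6 and 0.25 for Ccdc175. After normalization Fry (0.41) and Ccdc175 (0.20) kept a difference above the SD, and the other 6 lay between −0.06 and 0.07.

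This EGFP-only difference moved with the Cy3 intensity of the same spot. In the 8 genes the rise in Cy5 from array 2 to array 1 was 1.05% (Grin2d) to 3.26% (Scrt2) of the rise in Cy3, with a median of 1.43%. Among other probes, 31 of 32 with a Cy3 intensity at least 2-fold higher on array 1 had a higher EGFP-only intensity there as well, and 136 of 167 with a log2 Cy3 difference between 0.5 and 1. Where the log2 Cy3 difference was within 0.5 the share was 58.7%, and where Cy3 was between 2-fold and 4-fold higher on array 2 it was 43.6%. The part of the Cy3 dye in the EGFP-only values was not tested.

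**Figure D4:**
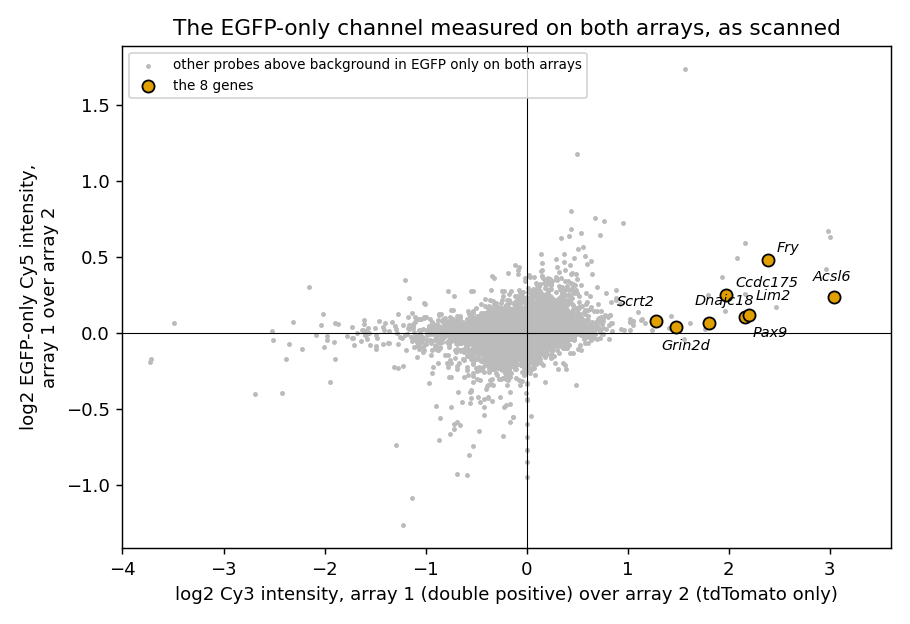
Log2 difference of the EGFP-only Cy5 intensity between array 1 and array 2 (vertical) against that of the Cy3 intensity (horizontal), as scanned, for 15640 probes above background in EGFP-only cells on both arrays. The 8 genes lie to the right and above 0, between 0.04 for Grin2d and 0.48 for Fry.

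The spots around the 8 genes were compared between arrays as well. The 8 spots lay in 8 different blocks of the 24 on the array, but 5 of them were in row 4 of their block and 2 in row 3, of 11 rows. Of the 2491 other spots in row 4, 1 (0.0401%) had a Cy3 intensity at least 2-fold higher on array 1, and of the 2494 in row 3, 3 (0.120%), against 0.00% to 0.280% in the other rows. The part of the row in the values of the 8 genes was not tested. Of their 64 adjacent spots, 0 had a Cy3 intensity at least 2-fold higher on array 1 than on array 2, and the log2 differences ran from −0.74 to 0.20, against 1.28 (Scrt2) to 3.04 (Acsl6) for the 8 genes themselves. The scanner output also lists a Cy3 background value per spot, which was not subtracted. It was higher on array 1 at each of the 8 spots, and the same count over other spots was not made. Examples are Acsl6 (472 against 70.8), Fry (6715 against 1159.7), Pax9 (16925 against 4443) and Scrt2 (103 against 68.3). Some of these values were large beside the Cy3 intensity of the spot. For Pax9 that intensity was 23869.9 on array 1 and 5322 on array 2, and for Fry 8946 and 1714. The part of this background in the values of the 8 genes was not tested.

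The neighbours of the genes on the chromosome were read from the RefSeq gene order. Of 18 protein-coding genes next to or overlapping the 8, 11 had a ratio in each comparison. Their median was −0.06 in double-positive over tdTomato-only cells, and 1 of the 11 was past 2-fold there, against 0.274% of all genes. That gene was Nkg7, which follows Lim2 and encodes a granule protein of cytotoxic lymphocytes. Nkg7 read 226 in double-positive cells, 137 in tdTomato-only cells, and 87.6 and 86.4 in EGFP-only cells, so the order of the populations was that of Lim2. Its log2 ratio was 1.75 over EGFP-only and 1.02 over tdTomato-only cells, against 3.73 and 2.49 for Lim2. Slc25a21, which overlaps Pax9, had 0.07 and −0.01, and Jkamp, which overlaps Ccdc175, had −0.33 and −0.08. The probe sequences were not used here, so which transcript each probe detects was not tested.

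Of the markers of T and intraepithelial lymphocytes, those with ratios were highest in double-positive cells, next in tdTomato-only and lowest in EGFP-only cells. This was also the order of the 8 genes other than Acsl6, and of the Paneth cell genes Clps, Pnliprp2 and Wnt3. The choice of the 8 genes fixed double-positive cells as the highest, and the share of all genes in this order was not counted. Of 13 listed, 12 were on the array and 9 had ratios. In double-positive over EGFP-only cells 9 of 9 were at least 2-fold higher, against 5.10% of all genes, with a median log2 ratio of 2.75. In tdTomato-only over EGFP-only cells 6 of 9 were past 2-fold, against 6.15% of all genes, with a median of 1.46. In double-positive over tdTomato-only cells 6 of 9 were past it, against 0.274%, with a median of 1.13 and a range from 0.70 to 1.75. The summed intensity of the list was 13688 in double-positive cells, 6489 in tdTomato-only cells, and 2431 and 2362 in EGFP-only cells. Gzma had log2 ratios of 3.82 and 2.07 over EGFP-only cells, and Ccl5 3.41 and 1.85. The T cell receptor complex gene Cd3e was not above background in any channel. Cd2 and Xcl1 were above background in both Cy3 populations but not in EGFP-only cells, so they had no ratio. They were level between the Cy3 populations, with 89.7 and 92.3 in double-positive and 90.2 and 90.6 in tdTomato-only cells. The part of lymphocytes in the values of the 8 genes was not tested.

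Myeloid and mast cell markers had a median of 0.19 over 8 genes in double-positive over EGFP-only cells (1.62 in the authors' deposited table). Past 2-fold were C1qb (3.62), Fcer1g (1.88) and Tyrobp (1.20), 3 of 8 against 5.10% of all genes. Among the genes not past it, C1qc had 0.18 and Csf1r −0.18. C1qa was not above background in EGFP-only cells and had no ratio. The list summed to 2062 in double-positive and 1784 in tdTomato-only cells, of which C1qb made 1009 and 852. Fcer1g, an Fc receptor subunit gene, was also past 2-fold over tdTomato-only cells, at 1.12. Markers of the cells in which several of the 8 genes are best known were dim. Of 9 enteric neuron markers 3 had ratios, between −0.02 and 0.14 in double-positive over EGFP-only cells, and Ret, Stmn2, Nefl, Vip and Nos1 were not above background in any channel. Of 4 enteric glia markers 3 had ratios, from −0.04 to 0.29, and of 4 erythroid markers 3, from −0.07 to 0.36. B and plasma cell markers lay between −0.17 and 0.38 and fibroblast, muscle and endothelial markers between −0.13 and 0.32. Their part in the result was not tested.

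Paneth cell markers were high in both Cy3 populations. Of the 7 on the array, 4 were at the scanner's ceiling in double-positive and 3 in tdTomato-only cells, so their ratios are lower bounds and no list median is given over EGFP-only cells. The 3 below the ceiling in both were the colipase gene Clps (5.55 in double-positive and 5.22 in tdTomato-only cells over EGFP-only cells), the lipase gene Pnliprp2 (5.45 and 4.93) and the Wnt ligand gene Wnt3 (1.35 and 0.87), which were 0.33, 0.52 and 0.48 higher in double-positive than in tdTomato-only cells. Goblet cell markers (−0.92 over 6 genes) and enterocyte markers (−0.78 over 6) were lower in double-positive than in tdTomato-only cells, as were enteroendocrine markers (−0.52 over 13) and tuft cell markers (−0.20 over 4). Of the goblet cell genes, 3 were at the ceiling in tdTomato-only cells, so their ratios there are bounds. Stem cell markers were higher in double-positive than in tdTomato-only cells, with a median of 0.75 over 8 genes and 2 past 2-fold, against 0.274% of all genes. Over EGFP-only cells their median in double-positive cells was −0.79 over 9 genes.

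The size of the ratios depended on the processing. The tdTomato-only over EGFP-only ratio of Acsl6 also changed sign, from −0.02 to 0.31 in the authors' deposited table and 0.17 in the raw intensities. Each of the 16 double-positive ratios of the 8 genes was at least 2-fold in all 8 alternative ways of processing. No filter on dim probes and a limit of 3 SD change only which genes are kept, so they could not alter these ratios. The ratio of Acsl6 over tdTomato-only cells ran from 2.81 in the raw intensities to 5.19 with the blank mean subtracted, and that of Ccdc175 from 1.72 to 1.92. Genes near the background limit in EGFP-only cells moved most over EGFP-only cells, such as Grin2d (2.04 to 4.53) and Lim2 (3.10 to 5.28), while Fry stayed between 4.81 and 5.89. In each of the 9 ways the 8 genes were among the highest 20 genes in double-positive over tdTomato-only cells. The genes were chosen for high double-positive values on these same arrays. Nothing is therefore read from that rank or from the 16 ratios staying past 2-fold.

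**Figure D5:**
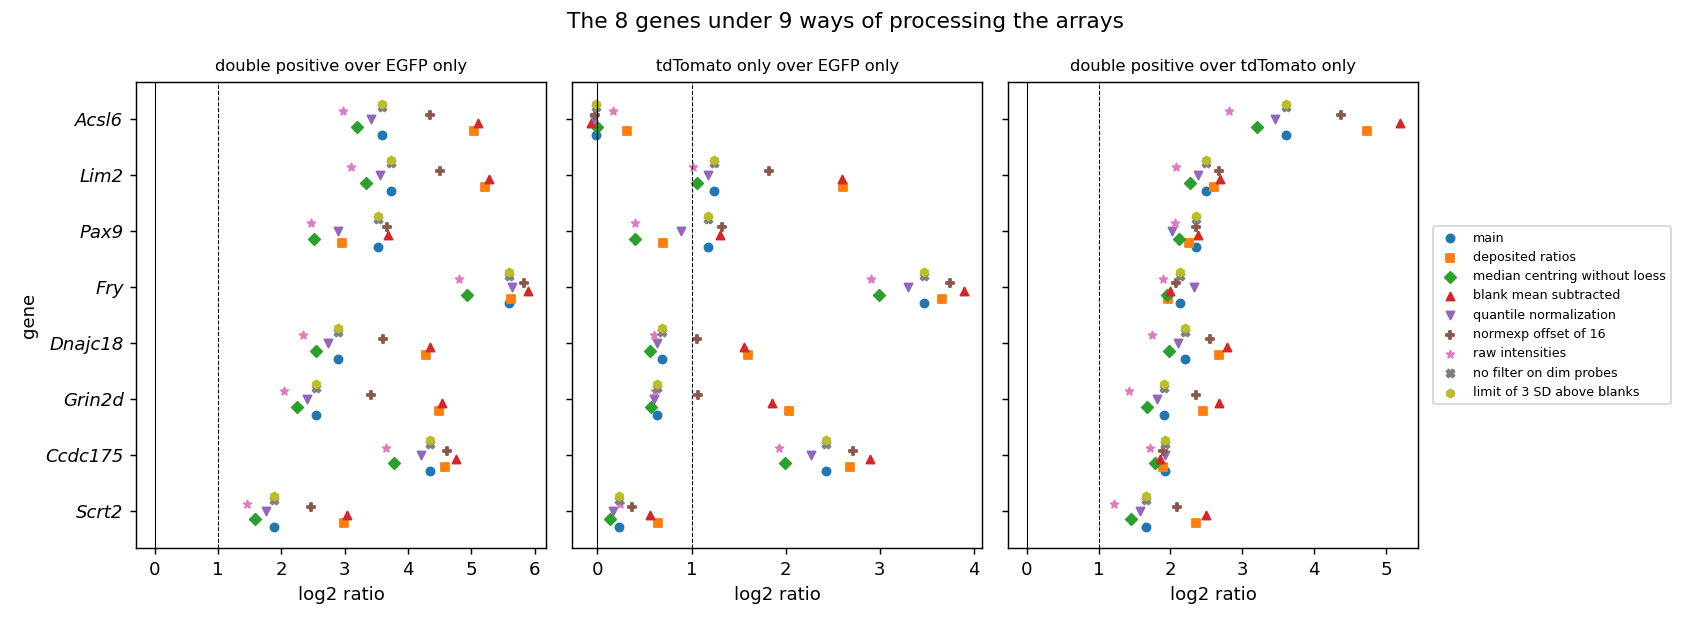
Log2 ratio of the 8 genes (rows) in the 3 comparisons (panels) under 9 ways of processing the arrays (symbols), with a dashed line at 2-fold. In the outer panels every symbol lies to the right of the dashed line, and in the middle panel Pax9, Dnajc18 and Grin2d have symbols on both sides of it.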

How the data were processed

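Per the file headers, the deposited scanner output holds spot median intensity at the red and the green wavelength. Blank spots lie well above 0 in it, as without background subtraction. A further table deposited by the authors holds log2 ratios that the labels call normalized, set as Cy3 over Cy5, with the method not stated in the sources used here and a median of 0 per array. Of 27456 spots 3982 were controls, 2736 of them blank. Intensities were corrected with normexp (offset 50, no local background) and loess within each array, using limma 3.58.1 in R 4.3.3. Control spots and those with a scanner quality mark had weight 0. The steps were tested on simulated data with known folds, for the direction of the folds and the centring of unchanged probes. The simulation held no large background at single spots and no Cy3 signal in Cy5, so it cannot speak to either. Above background means over the mean plus 2 SD of the blanks. Double positive over tdTomato only is the difference of the 2 arrays' log2 ratios. No dye swap was made, so in the ratios over EGFP-only cells dye and population cannot be told apart for a single probe.

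The platform's annotation named 16632 probes, with symbols updated through RefSeq (GRCm38.p6). The sources used here do not state the genome build behind the array, so the start-site windows are the only coordinates given. Members and lists were chosen with earlier results of these data known. The genes named are the members, their closest relatives, up to 3 relatives per list past 2-fold, up to 2 markers per list, and the nearest genes in both ratios. Further genes, such as Clps, C1qb, Tyrobp, Dnajc1, Dnajc12, Slc27a4, Nkg7, Jkamp, Slc25a21, Cd3e, Ret, Stk38, Mip and Bfsp1, were named after their values were seen. The 8 alternatives were the deposited ratios, median centring, blank mean subtraction, quantile normalization, an offset of 16, raw intensities, no filter on dim probes and a limit of 3 SD.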

Additional observations from a re-analysis of the deposited data

How the results depend on the processing

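The median log2 ratio of the 8 genes in double-positive over EGFP-only, tdTomato-only over EGFP-only and double-positive over tdTomato-only cells was 3.56, 0.93 and 2.17. In that order it was 4.54, 1.81 and 2.41 in the authors' deposited table. Median centring without loess gave 2.87, 0.56 and 1.96, subtraction of the blank mean gave 4.64, 1.70 and 2.59, and quantile normalization gave 3.16, 0.76 and 2.06. It was 4.01, 1.19 and 2.35 with an offset of 16 and 2.71, 0.60 and 1.82 in the raw intensities. No filter on dim probes and a limit of 3 SD moved none of the 24 member values, since they change only which genes are kept. The cause of the other moves was not tested.

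The 601 genes at least 2-fold higher in double-positive over EGFP-only cells became 1516 in the deposited table, 1173 after subtraction of the blank mean, 364 with median centring and 327 in the raw intensities, and their share of all genes past 2-fold fell from 93.8% to 77.7%, 74.5%, 33.0% and 31.4% in the same order, and to 83.7% after quantile normalization. In double-positive over tdTomato-only cells 31 genes became 215 in the deposited table, 163 after subtraction of the blank mean, 58 with an offset of 16 and 18 in the raw intensities, and the 26 genes past 2-fold over both populations became 131, 95, 49 and 17 in the same order. Of the genes past 2-fold either way in double-positive over tdTomato-only cells, 25.2% were higher, against 49.9% in the deposited table and 44.2% after subtraction of the blank mean. For tdTomato-only over EGFP-only cells that share was 83.8%, and 64.9% in the deposited table, 67.4% after subtraction of the blank mean, 70.1% after quantile normalization, 32.4% with median centring and 37.3% in the raw intensities. Median centring put the median of all genes at −0.21 in both ratios over EGFP-only cells. The 7 relatives past 2-fold became 23 in the deposited table and 16 after subtraction of the blank mean. Signal near background limits what Acsl6, Grin2d, Dnajc18, Scrt2 and Lim2 can show in EGFP-only cells. No paired analysis was possible because there is 1 array per comparison.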

Other observations

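Probes without a gene name here were counted by the same limits. Of 3874 unnamed probes above background in all 4 channels, 14 (0.361%) were at least 2-fold higher in double-positive cells than in both other populations, against 0.230% of named genes, with log2 ratios over EGFP-only cells from 1.17 to 6.24 and over tdTomato-only cells from 1.02 to 2.86. The highest over tdTomato-only cells was probe M400003173 at 2.86, with an intensity of 14037 in double-positive cells, 1804 in tdTomato-only cells, and 1024 and 765 in EGFP-only cells. The highest over EGFP-only cells was M400017372 at 6.24, which read 24133, 5405, 604 and 402 in the same order.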
